A study of Mus musculus with 144 samples.

Results

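Convergent sites are polyadenylation sites of opposite strands that lie close to each other, so that a transcript of the plus strand and a transcript of the minus strand end at nearly the same place. Members were all pairs of sites in the authors' filtered list on the same chromosome, 1 on each strand, with midpoints at most 500 bp apart, a rule that uses positions and strands but no counts. The rule gave 803 pairs built from 956 of the 29199 filtered sites (3.27%). Sites are shared between pairs, and the pairs fell into 277 separate loci, of which 68 held 1 pair only, so pairs of a locus are not independent of each other. The widest member pair was 500 bp apart and the nearest pair outside the rule was 503.5 bp apart.

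The libraries came from livers of male C57BL/6J mice, wild type or Bmal1-/-, kept in equal periods of light and dark with food always available. Bmal1 (gene symbol Arntl) encodes a transcription factor that the circadian clock needs, and the labels give no promoter, tissue or age for its deletion. The 4 series of libraries were made with a kit that primes at the poly(A) tail and reads the 3′ end of the transcript, from total, nuclear and polysomal RNA of the wild type (polysomal transcripts are those bound to several ribosomes) and from total RNA of Bmal1-/- mice. Time is given as zeitgeber time (ZT, counted in hours from lights on), and every series has 6 libraries for each of 6 times, ZT2 to ZT22, making 36 per series and 144 in all. No source used here says whether the fractions came from the same animals. All libraries were tested as unpaired, and the p-values measure only the spread between these libraries.

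When genes on opposite strands run toward each other, their 3′ ends meet. Cleavage and polyadenylation release each messenger RNA, the polymerase runs on for some distance before it leaves the template, and transcripts of both strands can then share a stretch of complementary sequence. A polyadenylation signal, most often the hexamer AATAAA, lies a short distance before the cleavage point on the strand of its own gene.

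One convergent locus overlapped the RefSeq sequences at hand (build GRCm38.p6, 300 bases around annotated gene starts) and is shown for that reason, chosen after its values were seen. It is the meeting point of Ints11, the catalytic subunit of the Integrator complex that cuts nascent RNA, on the plus strand of chromosome 4, and Pusl1, a pseudouridine synthase-like gene, on the minus strand. The 30 bases that end at the 3′ edge of 4 of its 7 convergent sites are printed 5′ to 3′ on the gene's own strand, with any AATAAA in capitals.
Ints11 site chr4:155888810-155888873, bases 155888844-155888873: tAATAAAcagacctttttgttctctatgtc
Pusl1 site chr4:155888858-155888868, bases 155888858-155888887: gagtaggAATAAAagacatagagaacaaaa
Ints11 site chr4:155888762-155888778, bases 155888749-155888778: cggccgagaggcgggtgccctgagtaaatg
Pusl1 site chr4:155888933-155888951, bases 155888933-155888962: aacaacatggggtaccaggcagtcaaaagc

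In the first Ints11 stretch 23 bases followed the hexamer, and in the first Pusl1 stretch 17 bases followed it. The other 2 stretches shown held no AATAAA. On the gene strand the hexamer was in 1.09% of all 30-base pieces of the 32851 table windows, in 11.3% of whole windows, and on both strands in 2.15% of windows, with each strand read separately. These matches describe letters and are not tested sites.

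The 4 sites shown were weakly counted, and both Ints11 ends had higher and both Pusl1 ends lower means in Bmal1-/- than in wild-type total RNA. In wild-type and then Bmal1-/- total RNA the mean CPM was 1.18 and 2.72 at the Ints11 end with the hexamer and 0.295 and 1.08 at the one without, and 0.316 and 0.0761 at the Pusl1 end with the hexamer and 2.22 and 0.611 at the one without. Values are CPM, the counts at a site scaled by the sum over all 86780 sites of that library, and because each transcript gives 1 end in this assay they are not divided by length. The Pusl1 site at chr4:155888858-155888868, downstream of the hexamer, had a lowest, median and highest CPM of 0, 0.294 and 1.45 in wild-type total RNA, 0, 0.640 and 2.62 in nuclear RNA, 0.306, 3.66 and 13.8 in polysomal RNA and 0, 0 and 0.622 in Bmal1-/- RNA. Polysomal libraries were thus mostly high and Bmal1-/- libraries mostly at 0, with overlapping ranges. It rose in polysomal against total RNA by 3.70 ± 0.28 on the log2 scale (SE, edgeR quasi-likelihood test, adjusted p = 2.17e-19), at 6 of 6 times. The opposing Ints11 site at chr4:155888810-155888873 went from 0.468, 1.15 and 2.32 in wild-type to 0.610, 2.83 and 4.09 in Bmal1-/- total RNA, a rise of 1.14 ± 0.14 (edgeR, adjusted p = 2.66e-10), with overlapping ranges. Here the count minimum was met only through the Bmal1-/- libraries. The Pusl1 site upstream of the other one, at chr4:155888933-155888951, had 0.245, 2.24 and 4.55 in wild-type and 0, 0.0879 and 2.65 in Bmal1-/- total RNA. Its mean count over both genotypes was too low for the test.

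Most convergent pairs were the annotated ends of neighbouring protein-coding genes. Of the 803 pairs, 782 joined sites of 2 different genes (264 gene pairs), 4 joined a gene with a site antisense to it, 15 had a site in a gene whose strand was not known and 2 had a site in no gene. In 660 pairs (82.2%) the plus-strand site came first, so that the ends faced each other, and in 143 the sites were crossed, the plus-strand site lying beyond the minus-strand site so that the transcripts overlapped. Among opposite-strand pairs over 500 to 2000 bp apart, 87.6% of 1506 faced each other. The median distance was 242 bp in facing and 187.5 bp in crossed pairs, and the intervals of 117 pairs overlapped.

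**Figure D1:**
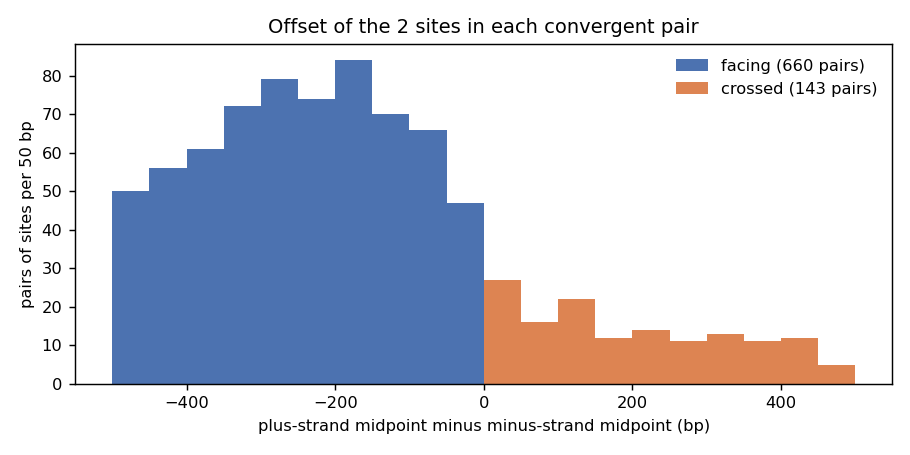
Position of the plus-strand midpoint minus that of the minus-strand midpoint (x axis, bp) for the 803 convergent pairs, as numbers of pairs per 50 bp (y axis). The 660 facing pairs lie at or below 0 and the 143 crossed pairs above it.

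Members sat nearer to annotated gene ends than other sites did. Of the 941 member sites inside a gene of their strand, 82.9% lay within 500 bp of the RefSeq end of that gene, against 50.5% of all filtered sites in a gene. RefSeq models of the same build overlapped in 164 of the 264 gene pairs (62.1%). Protein-coding genes held 933 of the member sites and lncRNA genes 4.

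Libraries held 1404964 to 12217394 site counts, and member sites took a median of 1.99% of them in wild-type total, 1.92% in nuclear, 2.15% in polysomal and 2.11% in Bmal1-/- RNA. There were 4 libraries, all at ZT22, with Xist (the transcript of the silenced X chromosome) at 165 to 4363 CPM where the other 140 libraries, all labelled male too, reached at most 5.67. The Y-linked Ddx3y was at 0 to 0.380 CPM in 3 of them, against the label, and at 92.9 in Bmal1-/- replicate 6, where the 140 had a median of 84.2. These 3 were wild-type total replicate 5, nuclear replicate 5 and polysomal replicate 1. Whether they came from the same animal was not tested. Polysomal replicate 1 stood apart with lung club-cell markers up to 915 CPM. No other series had these markers above 0.301 CPM. Results were repeated without each of these. Without the high-Xist libraries 2 of 40 values of named pairs lost their call, and not each is given beside its result. Summed markers had different medians in the series: hepatocyte genes had 65482 CPM in wild-type total, 37801 in nuclear, 32318 in polysomal and 49891 in Bmal1-/- RNA, with overlapping ranges, stellate-cell genes 273 in total and 141 in nuclear RNA, cholangiocyte genes had a median of 73.2 CPM in Bmal1-/- and 25.4 in wild-type total RNA, red-cell genes 8749 in polysomal and 2504 in total RNA, and nuclear-retained RNAs 2726 in nuclear, 1964 in total and 58.7 in polysomal RNA. In whole liver, fewer cells of a type and less RNA per cell cannot be told apart, and the part of these markers in the results was not tested. Arntl itself had a lowest, median and highest CPM of 0.251, 6.46 and 19.3 in wild-type and 5.17, 10.9 and 18.6 in Bmal1-/- total RNA, a 3′ count that does not check a deletion elsewhere in the gene.

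A check on nested sites told the strands apart at a few pairs only. In 41 pairs 1 interval lay wholly inside the other, so that counting without strand would give the inner site no more than the outer one. The inner site had the higher mean count in 3 of these, and the higher count in over 90% of libraries in 2. An inner site below the outer one can arise with or without strand, so the other nested pairs cannot decide. The check also cannot show whether some reads were given to the wrong strand. The deposited files do not state how strand was used, so strand balances at overlapping sites rest on this limited check.

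The strands of a pair were seldom equally strong. The weaker site had a median of 27.8% of the level of the stronger in wild-type total RNA, 23.1% in nuclear, 20.6% in polysomal and 26.6% in Bmal1-/- RNA. The pair whose weaker site was highest joined Rps2, a small ribosomal subunit protein, at 192 ± 52.5 CPM (mean ± SD over 36 wild-type total libraries of all times), with Ndufb10, a subunit of respiratory complex I, at 111 ± 19.9. Bphl, a serine hydrolase, had 99.1 ± 17.96 against 138 ± 87.7 for the tubulin gene Tubb2a. Tcp1, a subunit of a cytosolic chaperonin, had 82.0 ± 11.7 at a site crossed by 316 bp with that of Acat3, an acetyl-CoA acetyltransferase, at 120 ± 22.4. Lpcat3, a phospholipid acyltransferase, and Emg1, a ribosome-biogenesis methyltransferase, were nearly level at 38.7 ± 8.61 and 37.6 ± 7.79. Ribosomal protein, tubulin and chaperone genes have near-identical copies elsewhere in the genome, so their counts are uncertain to the extent that reads were split between copies.

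Loss of Bmal1 changed convergent sites about as often as other sites. Among 656 member sites counted at least 10 times on average, 209 (31.9%) passed the test of genotype in total RNA at an adjusted p under 0.05, against 33.4% of all 19962 sites tested. Of these, 88 were higher and 121 lower in Bmal1-/- (17.2% of all sites were called higher and 16.2% lower), and 19 changed at least 2-fold (2.90%, against 4.08%). The median log2 change was -0.04 in members and 0.0011 over all sites.

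The balance between the strands was the log2 ratio of plus-strand to minus-strand counts with 0.5 added to each. It needs no scaling for library depth because both counts come from 1 library. Near 0 counts the added 0.5 still makes it depend on depth. The balance was tested with limma over all opposite-strand pairs up to 10000 bp apart with at least 10 counts on average at each site. Between the genotypes it differed in 108 of 394 member pairs (27.4%), against 28.9% of all 3528 pairs tested, in 74 of 211 gene pairs. It moved toward the plus strand in 66 (15.1% of all pairs) and toward the minus strand in 42 (13.9%), and by at least 2-fold in 25 (6.35%, against 7% of all pairs). Of the pairs whose sites both passed the test, 13 of 37 changed in opposite directions, against 145 of 334 at over 500 to 10000 bp.

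The named examples come from pairs with a mean of at least 50 counts at each site over the 72 libraries compared. Among these the largest shift was between Abhd1, an abhydrolase-domain gene, and Preb, a regulator of vesicle export from the endoplasmic reticulum. Their intervals overlap on chromosome 5 (Abhd1 chr5:30955033-30955098 on the plus strand, Preb chr5:30955038-30955215 on the minus strand). The Abhd1 site met that minimum only through the Bmal1-/- libraries, so its rank depends on them. Abhd1 had a lowest, median and highest CPM of 0, 1.31 and 2.94 in wild-type and 0.617, 19.2 and 39.4 in Bmal1-/- total RNA, and 30 of the 36 Bmal1-/- libraries lay above every wild-type library. Preb had 34.8, 44.7 and 57.7 and then 27.9, 39.3 and 75.1, a fall by 0.22 ± 0.06 on the log2 scale (edgeR, adjusted p = 0.00189). The balance moved toward Abhd1 by 3.56 ± 0.30 (limma, adjusted p = 1.53e-15), higher at 6 of 6 times, by 2.90 with replicates 1 to 3 and 4.23 with replicates 4 to 6. In nuclear against total RNA the Abhd1 site was also higher, by 2.87 ± 0.17, with 33 of 36 nuclear libraries above every wild-type total library.

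At the other 2 pairs that moved most toward the plus strand, the minus-strand gene fell. Pltp, the phospholipid transfer protein of plasma, had 1.75, 15.0 and 42.9 CPM in wild-type and 1.06, 3.52 and 6.59 in Bmal1-/- total RNA, beside Ctsa (cathepsin A, a lysosomal protease), with 35.1, 51.6 and 75.7 and then 35.2, 46.3 and 58.8. Bmal1-/- libraries were low at Pltp, but only 5 of 36 lay below every wild-type library. The Ctsa/Pltp balance differed by 1.64 ± 0.22 (adjusted p = 1.18e-08), by 2.39 with replicates 1 to 3 and by 0.89 with replicates 4 to 6. At Tpr/Prg4, Prg4 (lubricin, a secreted proteoglycan) fell by 1.02 ± 0.14 (adjusted p = 1.93e-08) while Tpr, a nuclear pore protein, had 0.06 ± 0.11 (adjusted p = 0.715). Their balance differed by 1.12 ± 0.17 (0.74 with replicates 4 to 6 only).

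Toward the minus strand, Retsat, the retinol saturase, fell beside Tgoln1, a protein of the trans-Golgi network. Retsat had 8.30, 22.3 and 62.8 CPM in wild-type and 3.16, 8.27 and 57.5 in Bmal1-/- RNA, with 18 of 36 Bmal1-/- libraries below every wild-type library. The Retsat/Tgoln1 balance differed by -1.21 ± 0.15 (adjusted p = 9.51e-10, lower at 6 of 6 times, -1.61 with replicates 1 to 3 and -0.81 with replicates 4 to 6). Tjp3 (ZO-3, a tight-junction scaffold) rose by 0.67 ± 0.10 at the site facing Apba3, an adaptor protein, and the Apba3/Tjp3 balance differed by -1.03 ± 0.22 (adjusted p = 0.000197; -0.78, adjusted p = 0.0931, with replicates 1 to 3). The Rps2/Ndufb10 balance differed by -1.32 ± 0.35 (adjusted p = 0.00229), but Rps2 ranged from 1.96 to 299.9 CPM in Bmal1-/- RNA and replicates 1 to 3 gave -0.66 (adjusted p = 0.280). At Tcp1/Acat3 the balance differed by -0.73 ± 0.08 (adjusted p = 7.10e-11), with Acat3 above every wild-type library in 23 of 36 Bmal1-/- libraries.

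Nuclear RNA differed from total RNA at most sites, and members were called higher more often than lower. Of 587 member sites tested, 492 (83.8%) passed, against 82.7% of all 17649 sites, and 308 were higher and 184 lower in nuclear RNA (39.8% and 42.9% of all sites). The median log2 difference was 0.35 in members and -0.05 over all sites, and 266 members (45.3%, against 46.6%) differed at least 2-fold. With DESeq2 size factors in place of TMM scaling the split was 272 higher and 226 lower and the medians were 0.13 and -0.27, so the scale moved by about as much for members as for all sites. Among sites within 500 bp of a RefSeq gene end, 264 of 486 members were higher in nuclear RNA (54.3%) and 140 lower (28.8%), with a median of 0.39, against 38.5% and 42.8% of 8260 other sites, with a median of -0.06. Members farther from the end had 41 higher and 41 lower of 93, with a median of -0.04. This contrast between members and other sites is a description, since members share loci.

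**Figure D2:**
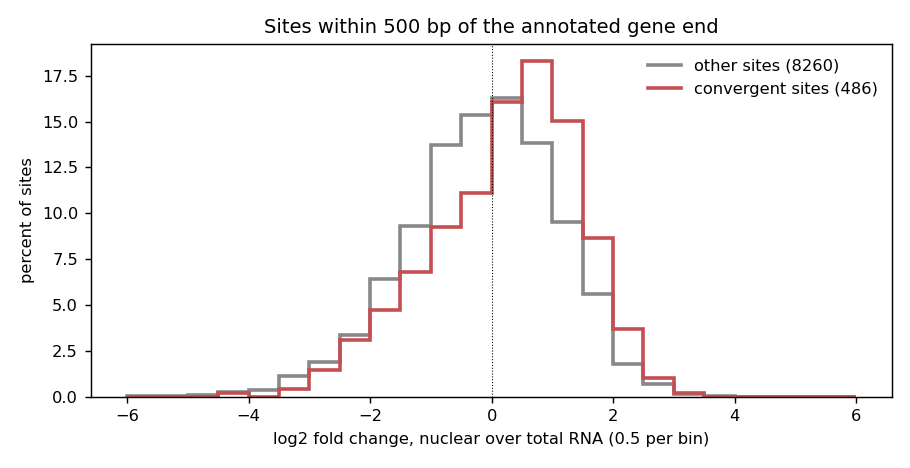
Distribution of the log2 fold change of nuclear over total RNA (x axis, bins of 0.5) for sites within 500 bp of the annotated gene end, as percent of sites (y axis), for 486 convergent sites and 8260 other sites. The convergent sites lie to the right, with a median of 0.39 against -0.06.

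The nuclear share of the strands differed in 227 of 313 member pairs (72.5%), against 77.6% of all 2761 pairs, and in 158 of 194 gene pairs. It moved toward the plus strand in 123 (39.9% of all pairs) and toward the minus strand in 104 (37.7%). The median absolute difference was 0.79 in members and 1.05 over all pairs, and 127 members (40.6%, against 51.9%) differed at least 2-fold. Of 226 member pairs with both sites called, 58 (25.7%) went in opposite directions, against 625 of 1652 (37.8%) at over 500 to 10000 bp.

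Among the 6 pairs named for the largest nuclear differences, 3 kept the groups fully apart. Slirp, which stabilises mitochondrial messenger RNA, had 17.7, 26.1 and 39.2 CPM in total and 0.319, 2.92 and 6.66 in nuclear RNA. Snw1, a splicing factor that ends 79 bp away on the other strand, had 5.60, 12.3 and 24.5 and then 10.6, 17.7 and 34.6. The Slirp/Snw1 balance was lower in 36 of 36 nuclear libraries than in every total library, by 3.74 ± 0.18 (-3.74 on the log2 scale, limma, adjusted p = 3.29e-29). Sult1a1, a phenol sulfotransferase, had 65.1, 113 and 342 CPM in total and 7.34, 14.01 and 31.6 in nuclear RNA, while Sgf29, a subunit of the SAGA coactivator on the opposite strand, had 5.43, 10.6 and 15.7 and then 8.94, 16.4 and 24.7. Their balance moved by 3.59 ± 0.15 toward Sgf29 (adjusted p = 1.06e-32), again with no overlap between the 36 nuclear and the 36 total libraries. The third was Dctn2/Mbd6 (a dynactin subunit and a methyl-CpG-binding domain protein), at -2.58 ± 0.14 (adjusted p = 1.34e-26), where Mbd6 rose by 2.10 ± 0.10 and Dctn2 fell by 0.56 ± 0.09.

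Several ends of a gene were measured at the next locus, and differences between ends of the same gene were not tested. Ift20, an intraflagellar transport protein, and Tmem97, the sigma-2 receptor, met on chromosome 11. The Ift20 end at chr11:78541361-78541478 fell by 2.15 ± 0.09 in nuclear RNA and the Tmem97 end at chr11:78541814-78541853 rose by 1.16 ± 0.12, a balance of -3.28 ± 0.17 (adjusted p = 8.14e-28) with 35 of 36 nuclear libraries below every total library. The neighbouring Tmem97 end at chr11:78541948-78542056 had -0.21 ± 0.19 in the same comparison (edgeR, adjusted p = 0.296), and its balance against the second Ift20 end was -1.63 ± 0.23 (adjusted p = 2.66e-09). Pex6/Gnmt (a peroxisome-assembly ATPase and glycine N-methyltransferase) moved by 2.34 ± 0.19 toward Pex6, and Gps2/Eif5a (a subunit of a nuclear corepressor and a translation factor) by 2.29 ± 0.28 toward Gps2, both with overlapping ranges.

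Polysomal RNA differed from total RNA at members as often as elsewhere. Of 634 member sites, 466 (73.5%) passed, against 75% of all 18671 sites, and 251 were higher and 215 lower (37.4% and 37.6% of all sites). With DESeq2 size factors the split was 192 higher and 286 lower, with a shift of the median of all sites from -0.0069 to -0.23, so the direction of small polysomal differences depends on the scale. At least 2-fold differences were found at 213 members (33.6%, against 35.7%). The strand balance, which has no such scale, differed in 259 of 365 pairs (71.0%), against 74.4% of all 3235 pairs, in 165 of 198 gene pairs, 129 toward the plus strand (35.7% of all pairs) and 130 toward the minus strand (38.7%). Of these, 176 (48.2%, against 52.7%) differed at least 2-fold. Both sites were called and went in opposite directions in 82 of 196 pairs (41.8%), against 47.3% of 1540 pairs farther apart.

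Yif1b, a protein of vesicle traffic, and 2200002D01Rik showed the largest polysomal shift toward the plus strand. Yif1b had 2.45, 20.5 and 34.3 CPM in total and 26.9, 76.6 and 194 in polysomal RNA, and 2200002D01Rik had 4.21, 16.7 and 32.1 and then 0.867, 5.06 and 15.7. The Yif1b/2200002D01Rik balance moved by 3.64 ± 0.18 (limma, adjusted p = 7.04e-29), with 35 of 36 polysomal libraries above every total library. Slc35b2, the Golgi importer of the sulfate donor PAPS, had 12.6, 23.8 and 39.0 CPM in total and 70.4, 98.8 and 163 in polysomal RNA, without overlap, beside Hsp90ab1, a constitutive HSP90 chaperone, with 309, 422 and 832 and then 183, 378 and 704. The Slc35b2/Hsp90ab1 balance moved by 2.41 ± 0.11 (adjusted p = 6.18e-31), with all 36 polysomal libraries above every total library. Nelfe/Cfb (a subunit of the negative elongation factor and complement factor B) moved by 1.97 ± 0.14, with Cfb at 713, 947 and 1316 CPM in total and 93.0, 292 and 1012 in polysomal RNA.

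In the other direction, Rpl7a, a ribosomal protein of the large subunit, had 119, 233 and 431 CPM in total and 11.7, 45.4 and 113 in polysomal RNA, without overlap. Its partner Surf1, an assembly factor of respiratory complex IV, had 17.5, 23.2 and 42.4 and then 6.88, 24.3 and 44.3. The Rpl7a/Surf1 balance moved by -2.38 ± 0.13 (adjusted p = 1.48e-25), below every total library in 36 of 36. Ift20/Tmem97 at -3.08 ± 0.18 (36 of 36 below) and Slirp/Snw1 at -2.69 ± 0.22 (32 of 36 below) moved toward the minus strand in polysomal as in nuclear RNA. These comparisons share the same 36 total libraries.

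**Figure D3:**
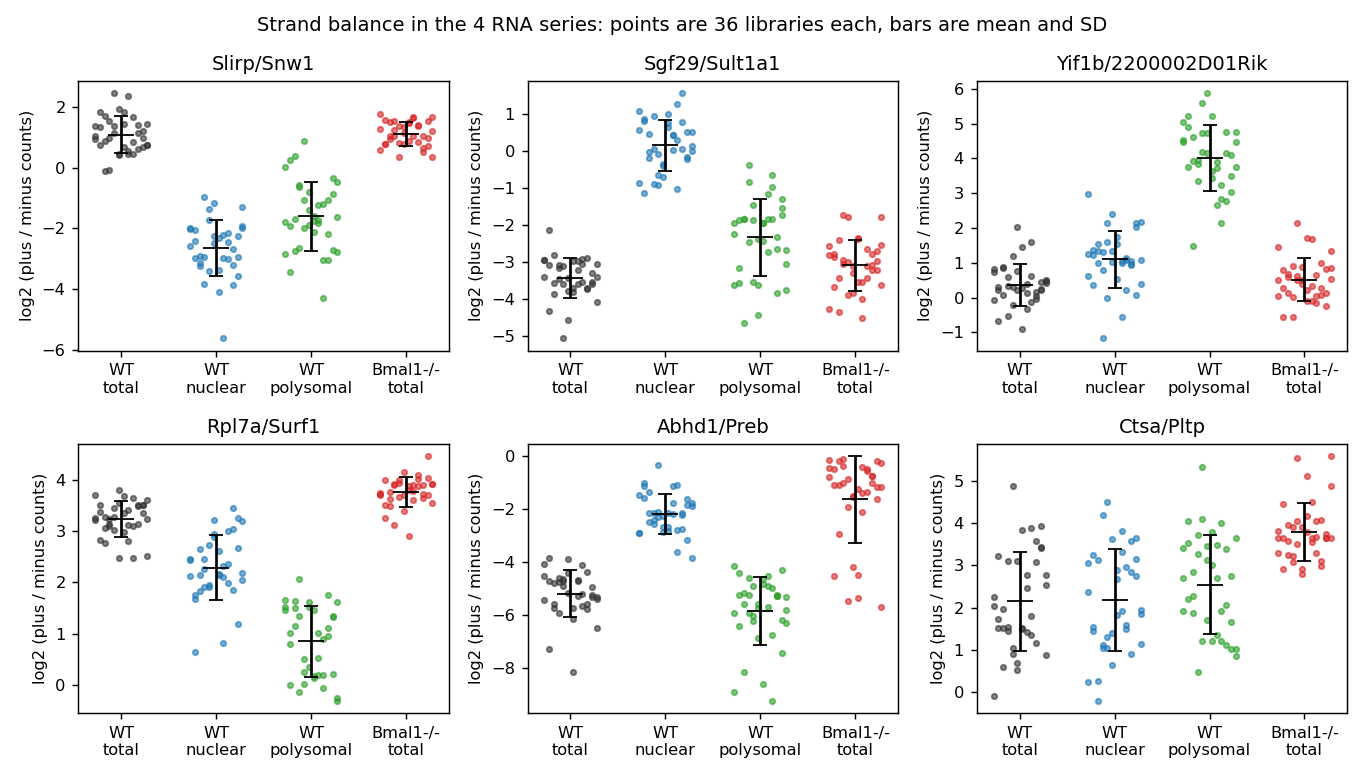
Log2 ratio of plus-strand to minus-strand counts (y axis) in the 4 series (x axis) for 6 convergent pairs; points are 36 libraries each, and bars give the mean and SD. Slirp/Snw1 is lowest and Sgf29/Sult1a1 highest in nuclear RNA, Yif1b/2200002D01Rik is highest and Rpl7a/Surf1 lowest in polysomal RNA, and Abhd1/Preb is higher in Bmal1-/- than in wild-type total RNA.

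Antisense sites facing into a gene of the other strand were few and differed in where they were found. The plus-strand site opposite the Lsr end (the lipolysis-stimulated lipoprotein receptor), 8 bp from it, had 0.823, 2.61 and 7.60 CPM in total and 1.47, 7.84 and 23.6 in nuclear RNA, a rise of 2.00 ± 0.18 (edgeR, adjusted p = 7.95e-17), while Lsr itself rose by 1.01 ± 0.08. That plus-strand site lies inside the Lsr interval, with a mean of 17.6 counts against 1152.8 for Lsr over all 144 libraries. Whether part of its counts came from Lsr reads given to the wrong strand was not tested. The site opposite Ggact, a cyclotransferase, had a median of 0.507 in total and 3.92 in nuclear RNA, with 32 of 36 nuclear libraries above every total library. Its mean count over both series was under the minimum for the test. The site opposite Rnf214, a ring finger protein, went the other way, with 3.58, 6.49 and 9.20 CPM in total, 0, 0.334 and 2.20 in nuclear and 0, 0.899 and 3.41 in polysomal RNA, neither of which overlapped total RNA. It fell by 3.26 ± 0.21 in nuclear (edgeR, adjusted p = 2.70e-23) and by 2.51 ± 0.25 in polysomal RNA (adjusted p = 1.25e-14). In both comparisons the count minimum, a mean over both series, was met through the total RNA libraries, where the site was high. These tests therefore add no support beyond the values themselves.

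Daily rhythms were called at convergent sites in wild-type but not in Bmal1-/- RNA. A cosine of 24 h was fitted to each series, and the ratio of its peak to its trough and the time of its peak describe it. In wild-type total RNA 91 of 645 member sites (14.1%) passed, against 11.2% of all 19479 sites, with a median fitted peak-to-trough ratio of 1.88 in both. In nuclear RNA 21 of 471 passed (4.46%, against 3.52% of all sites), in polysomal RNA 22 of 576 (3.82%, against 3.84%), and in Bmal1-/- RNA 0 of 660 with edgeR (0% of 20191 sites), where 25 members and 641 of all sites reached an unadjusted p under 0.05. By the interaction test, the rhythm in total RNA differed between the genotypes at 20 of 656 member sites (3.05%, against 2.28%).

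The strand balance cycled in 50 of 375 member pairs in wild-type total RNA (13.3%, against 9% of all 3379 pairs), in 34 of 207 gene pairs. The median fitted peak-to-trough ratio of the called balances was 2.86 in members and 2.60 over all pairs. In 19 of the 50 only the minus-strand site was itself called rhythmic, in 10 only the plus-strand site, in 12 both and in 9 neither. In nuclear RNA 13 of 225 pairs were called (5.78%, against 4.02%), in polysomal RNA 14 of 298 (4.70%, against 2.83%), and in Bmal1-/- RNA 0 of 401 with limma (0% of 3627 pairs), where 29 members and 165 of all pairs had an unadjusted p under 0.05. The balance rhythm differed between the genotypes in 13 of 394 pairs (3.30%, against 1.87%), from 10 gene pairs.

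The strongest was between Dbp, a transcription factor driven directly by the clock, and Sphk2, a sphingosine kinase, which end 415 bp apart on chromosome 7 (Dbp chr7:45709862-45709997 on the plus strand, Sphk2 chr7:45710262-45710427 on the minus strand). In wild-type total RNA the Dbp site had median CPM of 0.228, 23.4, 48.6, 8.57, 2.42 and 0.583 at ZT2, 6, 10, 14, 18 and 22, with all 6 libraries at ZT10 (36.9 to 72.9) above all at ZT2 (0 to 0.950). The Sphk2 site had 55.6, 45.3, 30.5, 33.0, 33.8 and 38.0, with all libraries at ZT10 (21.6 to 41.5) below all at ZT2 (44.6 to 75.0). So the plus strand was the stronger end at ZT10 and the minus strand by far the stronger at ZT2.

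The Dbp fit peaked at ZT9.94 with a peak-to-trough ratio of 106 (edgeR, adjusted p = 6.05e-11), and that of Sphk2 at ZT1.94 with a ratio of 1.81 (adjusted p = 0.000289; 0.113 with replicates 4 to 6 only). The Dbp/Sphk2 balance had a fitted ratio of 182 in total (limma, adjusted p = 1.00e-09), 143 in nuclear and 228 in polysomal RNA. Dbp values near 0 at ZT2 and ZT22 make the size of these ratios depend on the fit. In Bmal1-/- RNA the Dbp medians lay between 1.15 and 2.09 CPM at all times and those of Sphk2 between 25.4 and 32.7, the balance rhythm was not called (adjusted p = 0.915), and the difference between genotypes was called (adjusted p = 2.88e-09). Taken singly, the rhythm was called different between the genotypes at the Dbp site (edgeR, adjusted p = 5.38e-10) but not at the Sphk2 site (0.0727). Over all times Dbp fell by 1.52 ± 0.21 and Sphk2 by 0.39 ± 0.09 on the log2 scale in Bmal1-/- RNA. Another, weaker Sphk2 end (mean 5.96 CPM) had no called rhythm in wild-type total RNA (edgeR, ratio 1.15, adjusted p = 0.882).

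**Figure D4:**
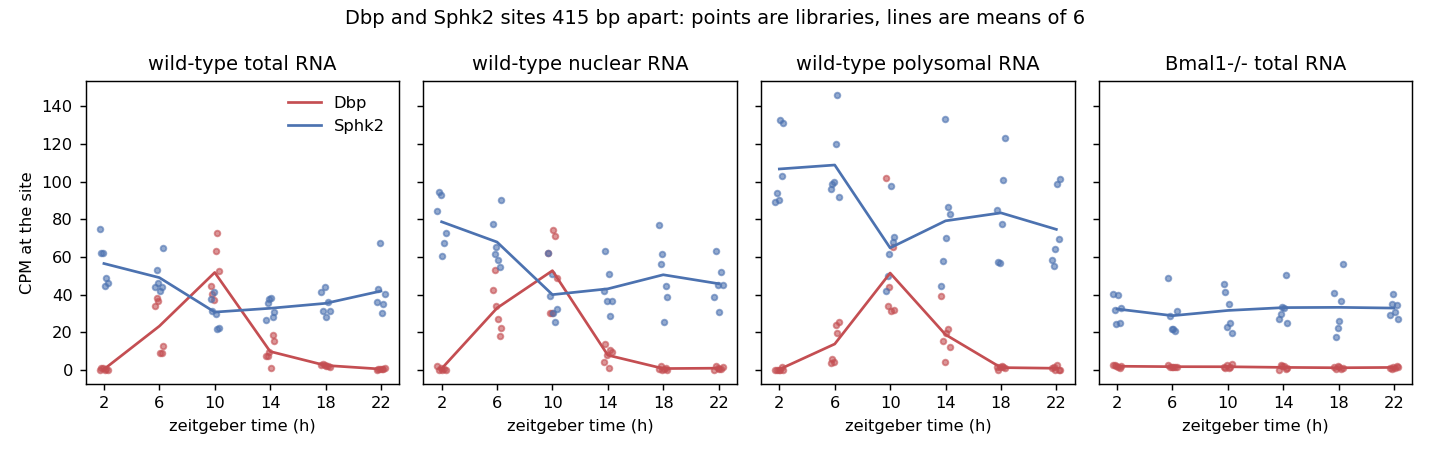
CPM (y axis) at the Dbp and Sphk2 sites by zeitgeber time (x axis, h) in the 4 series; points are single libraries and lines are means of 6. Dbp peaks near ZT10 in the 3 wild-type series, where Sphk2 is low in total RNA, and stays between 0 and 2.96 CPM in Bmal1-/- RNA.

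At Bphl/Tubb2a only the tubulin site was called rhythmic. Bphl had a fitted ratio of 1.11 (edgeR, adjusted p = 0.674), and a small rhythm there could have been missed. Tubb2a had a lowest, median and highest CPM of 14.7, 33.6 and 55.0 at ZT10 and 188, 252 and 275 at ZT22, while Bphl had 80.5, 94.9 and 116 and then 75.0, 92.5 and 113. Tubb2a libraries of ZT10 and ZT22 did not overlap, and Bphl libraries did. The Bphl/Tubb2a balance had a fitted peak-to-trough ratio of 8.14 in total (limma, adjusted p = 7.87e-10), 8.17 in nuclear and 9.51 in polysomal RNA, and its rhythm differed from that in Bmal1-/- RNA (adjusted p = 1.35e-07).

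The strands of Slc35b2/Hsp90ab1 cycled against each other. Slc35b2 had median CPM of 30.4 at ZT10 and 17.7 at ZT18, with 23.5 to 39.0 at ZT10 above 14.7 to 21.5 at ZT18, and Hsp90ab1 had 329 (309 to 361) and 566 (419 to 695), without overlap in either gene. Fitted peaks were at ZT8.29 and ZT20.5, with ratios of 1.53 (edgeR, adjusted p = 0.0114) and 1.75 (adjusted p = 0.000180), and the balance had a ratio of 2.64 (limma, adjusted p = 5.89e-06). Its difference from Bmal1-/- RNA (adjusted p = 0.0320) was lost without the 4 libraries with high Xist (adjusted p = 0.0761) and with replicates 1 to 3 (0.812) or 4 to 6 (0.0679) alone.

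The other 3 named balance rhythms lost their call with replicates 4 to 6 alone. Tymp, thymidine phosphorylase, had 85.2, 95.6 and 106 CPM at ZT2 and 29.8, 39.7 and 85.0 at ZT14 opposite Ncaph2, a condensin subunit, which had 0.490, 16.3 and 24.5 and then 21.9, 25.4 and 27.1. The Ncaph2/Tymp balance had a fitted ratio of 3.99 (adjusted p = 0.00377; 0.263 with replicates 4 to 6 only) and differed from that in Bmal1-/- RNA (adjusted p = 0.00664; 0.318 with replicates 4 to 6 only). Car14, a membrane carbonic anhydrase, crossed Aph1a, a subunit of gamma-secretase, by 462 bp; the Aph1a/Car14 balance had a ratio of 2.07 (adjusted p = 0.00187; 0.330 with replicates 4 to 6 only). The Apba3/Tjp3 balance had a ratio of 4.39 (adjusted p = 0.00627), which neither replicates 1 to 3 (0.0844) nor 4 to 6 (0.330) reached alone. The interaction test did not pass at Aph1a/Car14 (adjusted p = 0.681) or Apba3/Tjp3 (0.361), so these balance rhythms were not shown to differ between the genotypes.

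**Figure D5:**
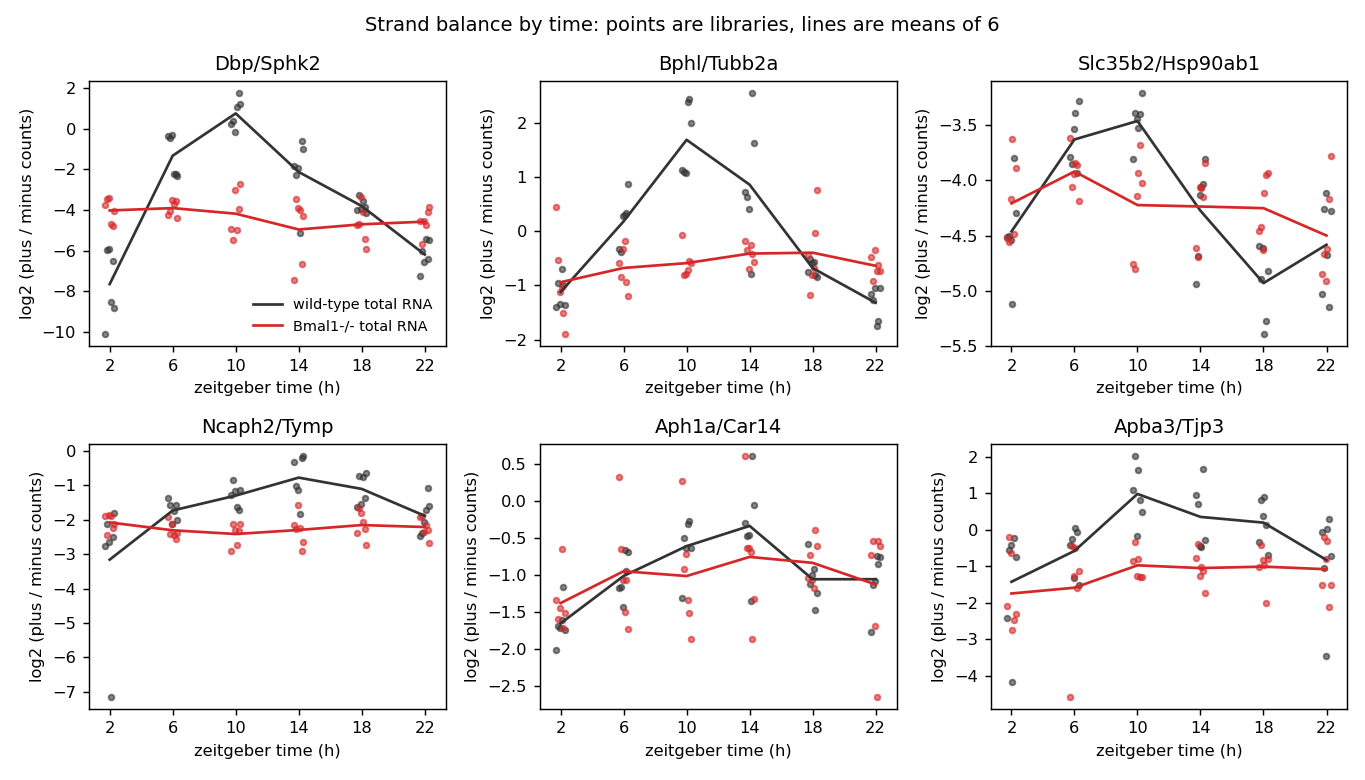
Log2 ratio of plus-strand to minus-strand counts (y axis) by zeitgeber time (x axis, h) for the 6 named pairs with a rhythm of balance, in wild-type and Bmal1-/- total RNA; points are libraries and lines are means of 6. The Dbp/Sphk2 and Bphl/Tubb2a lines swing most in wild-type RNA and are near flat in Bmal1-/- RNA.

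Both sites of a pair were called rhythmic in 16 of 375 pairs (4.27%), from 12 gene pairs, against 59 of 3004 pairs (1.96%) at over 500 to 10000 bp. Fitted peaks were over 8 h apart in 7 of the 16 and within 4 h in 5, against 14 and 35 of the 59 farther pairs, and the median peak distance was 6.47 h against 3.40 h. The 7 came from 5 gene pairs: Dbp/Sphk2, Slc35b2/Hsp90ab1, Tcp1/Acat3, Tns2/Spryd3 and Yars/C77080, the last 2 named after their values were seen. Pairs in phase included Mad2l2/Fbxo6 (a DNA-damage polymerase subunit and an F-box protein that binds glycoproteins), with peaks at ZT0.936 and ZT2.73 and ratios of 2.23 and 1.84. Both Mad2l2 and Fbxo6 were higher in Bmal1-/- RNA, by 1.19 ± 0.08 and 0.48 ± 0.07, and Mad2l2 lay above every wild-type library in 33 of 36. At Mrnip/Sqstm1 (a partner of the MRN repair complex and the autophagy receptor p62) the sites 392 bp apart peaked at ZT4.05 and ZT0.967, with ratios of 6.00 and 1.63. Mrnip was weakly counted (mean 2.16 CPM in wild-type total RNA), and the balance was itself called rhythmic (limma, ratio 4.70, adjusted p = 0.00213). Hmox2/Cdip1 (a haem oxygenase and a p53 target) peaked at ZT10.7 and ZT15.4, 4.70 h apart, and the weakly counted Bri3/Baiap2l1 at ZT12.1 and ZT13.9.

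Other clock genes did not have convergent sites under the rule. The ends of Nr1d1 and Thra came within 648 bp, those of Clock and Tmem165 within 671 bp and those of Arntl and Btbd10 within 1723.5 bp of each other.

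Genes that make or release 3′ ends were themselves measured. Of 21 genes of cleavage and polyadenylation with enough counts, 9 differed by genotype (44.2% of all 12082 genes did), 8 higher and 1 lower in Bmal1-/- RNA (21.7% and 22.4% of all genes). The nuclear poly(A)-binding protein Pabpn1 fell by 0.30 ± 0.08 and the cytoplasmic Pabpc1 rose by 0.33 ± 0.08. Of 9 termination genes 3 were higher, Ints11 by 0.43 ± 0.07, Rprd1a by 0.68 ± 0.15 and Rprd1b by 0.21 ± 0.07, and of 14 genes for binding or cutting double-stranded RNA 5 were higher and 1, the RNA editor Adarb1, lower, with a log2 change of -0.49 ± 0.10. In nuclear RNA 16 of 21, 5 of 9 and 12 of 14 differed (83.8% of all genes), and in polysomal RNA 18 of 21, 7 of 9 and 12 of 14 (76.1% of all genes). All 12 double-stranded RNA genes called there were lower in polysomal RNA (38.4% of all genes were called higher and 37.6% lower), with a median over the 14 of -0.43 against 0.014 over all genes, a comparison run under TMM scaling only. Rhythms in wild-type total RNA were called at 2 of 21, 1 of 9 and 4 of 14 (18.9% of all genes), and at none of them in Bmal1-/- RNA (0.00825% of all genes).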

How the data were processed

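The values are 3′ end counts of mouse liver RNA. Per the submitters' processing notes, the builds mm10 and GRCm38.p5 and the tools STAR 2.4.2a, HOMER and edgeR were used; the roles of these and the use of strand are not given in the sources used here. The authors deposited raw counts per site and per gene, with 1 column per library, a filtered list of 29199 sites and a raw table of 86780. Groups and replicate numbers come from the sample titles. Members and gene lists were chosen with earlier results of these data known.

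Library size was the sum over all raw site counts. Filtered sites counted at least 10 times on average were fitted with edgeR 4.0.16 (R 4.3.3, TMM scaling, robust quasi-likelihood test), with Benjamini-Hochberg adjustment over all sites tested and calls at an adjusted p under 0.05. Series were compared as means over 6 time points (72 libraries). Rhythm was fitted as cosine and sine terms of 24 h (2 degrees of freedom, 36 libraries). Count minimums were applied to the mean over all libraries of a fit. In a comparison of 2 series, a site high in only 1 of them could therefore pass. Strand balance was tested with limma 3.58.1 (robust, with a trend on the weaker site) over all opposite-strand pairs up to 10000 bp apart, with a pseudocount of 0.5. Sites were assigned to RefSeq GRCm38.p6 genes of their strand up to 1000 bp past the end; strand came from the RefSeq promoter table or, for 89 of 537 member genes, from sites at 1 gene end only (98.3% match in 6867 genes with both). Of the value columns, 0 lacked a sample, and within groups no pair of libraries held identical counts.

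Named pairs were clock genes, the 8 pairs whose weaker site was highest, the 3 largest shifts per direction and comparison with a mean of at least 50 counts at each site, in the same direction at 6 of 6 times, the 6 called balance rhythms with the widest range of time-point means, the 5 pairs with both sites rhythmic that had the highest smaller peak-to-trough ratio, and the strongest antisense pairs, with 1 pair per gene pair within a part of the rule. The fits were tested on counts simulated with the same dispersion at all sites. Of 2-fold changes, 94.5% were recovered for site levels in Bmal1-/- against wild type and 100% for strand balance there. Of 1.5-fold changes these were 81.5% and 49.5%. Of 2-fold rhythms in wild-type total RNA, 50.5% were recovered for sites and 0% for balance. Of 1.5-fold rhythms these were 2% and 2.90%, and of 4-fold balance rhythms 93.75% were recovered. Alternatives were other distances, count minimums, scalings, pseudocounts, tools (DESeq2 1.42.0), replicate blocks and left-out libraries. Figures were drawn with matplotlib 3.10.9.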

Additional observations from a re-analysis of the deposited data

Results flagged for a closer look

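Libraries far from the others of their group of 6 were found in 16 of 168 groups examined, by the gap to the nearest library over the whole range, a criterion that chance meets in about 5% of groups. For the share of counts at convergent sites 2 of 24 groups had one: polysomal ZT6 replicate 3 was lowest at 1.80% (group median 2.12%) and polysomal ZT22 replicate 1, a library that also has high Xist, was highest at 2.98% (median 2.23%).

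The Apba3/Tjp3 log2 ratio had 7 of them, each the lowest of its group. They were -4.58 in Bmal1-/- ZT6 replicate 1 (median -1.20), -2.02 in Bmal1-/- ZT18 replicate 5 (-0.89), -4.64 in nuclear ZT6 replicate 3 (0.34) and -3.47 in wild-type total ZT22 replicate 3 (-0.39). In polysomal replicate 1 they were -1.36 at ZT10 (2.66), -1.70 at ZT18 (1.85) and -3.40 at ZT22 (1.14). The Apba3 site had as little as 0 CPM in nuclear RNA, so 1 library with few counts moves this ratio.

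At Ncaph2/Tymp the lowest ratios were -7.15 in wild-type total ZT2 replicate 4 (median -2.57) and -2.39 in nuclear ZT10 replicate 4 (-0.75). At Dbp/Sphk2 they were -5.14 in wild-type total ZT14 replicate 4 (-1.89) and -8.12 in nuclear ZT22 replicate 1 (-5.44). At Aph1a/Car14 the ratio was highest at -0.65 in Bmal1-/- ZT2 replicate 4 (-1.48) and lowest at -1.31 in wild-type total ZT10 replicate 1 (-0.56). At Bphl/Tubb2a it was highest at -0.071 in Bmal1-/- ZT10 replicate 1 (-0.65).

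The rhythm of the strand balance differed between wild-type and Bmal1-/- total RNA, by the interaction test of limma, at 4 of the 6 named rhythmic pairs: Dbp/Sphk2 (adjusted p = 2.88e-09), Bphl/Tubb2a (1.35e-07), Ncaph2/Tymp (0.00664) and Slc35b2/Hsp90ab1 (0.0320).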

How the results depend on the processing

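Of 164 counts recomputed, 115 stayed within 1.5 times the reported count and 49 moved; of 323 values of named pairs, 301 kept direction and call, 22 kept direction but lost the call (7 with replicates 1 to 3 only, 12 with replicates 4 to 6 only, 2 without the 4 libraries with high Xist, 1 with a mean minimum of 1 count) and 0 reversed. Pairs numbered 433 within 250 bp, 1432 within 1000 bp and 3077 from the unfiltered list (584, 1529 and 3104 sites). Within 250 and 1000 bp, level calls were 123 and 327 for Bmal1-/-, 307 and 780 for nuclear and 286 and 757 for polysomal RNA, and balance calls 59 and 187, 122 and 405, and 139 and 469. Within 250 bp, rhythms were called at 59 sites in total and 14 in polysomal RNA, and rhythms of balance in 24 pairs in total, 4 in nuclear and 5 in polysomal RNA; genotype differences in them numbered 3, and 21 within 1000 bp. With a minimum of 50 counts, balance calls were 44 (Bmal1-/-), 58 (nuclear) and 70 (polysomal), balance rhythms 16 (total) and 7 (nuclear), and their genotype differences 3; fewer pairs were tested there, as at 250 bp. With replicates 1 to 3 only, rhythms were called at 47 sites in total, 6 in nuclear and 4 in polysomal RNA with 10 genotype differences, and rhythms of balance in 25, 6 and 4 pairs with 7. With replicates 4 to 6 only, they were called at 19 sites in total and 6 in nuclear RNA with 4 genotype differences, and in 7 pairs in total and 9 in polysomal RNA with 3; these use fewer libraries. With the replicate block, rhythm calls were 33 sites and 22 pairs in nuclear and 48 sites and 22 pairs in polysomal RNA; the cause was not tested. The replicate numbers were not taken as pairs, since the labels do not give them that meaning and not every same-numbered pair correlated above 0.1. Deviations of same-numbered libraries correlated with wild-type total RNA at a mean r of 0.306 in nuclear (-0.061 for other numbers, 94.4% of 36 pairs above 0.1, 24 of 36 best with their own number, a hint that the numbers carry some pairing there), 0.119 in Bmal1-/- (12 of 36) and -0.094 in polysomal RNA (0 of 36), and the block moved no other count of calls by over 1.5 times. Few counts limit the weaker strand: of 803 pairs, 375 had a mean of at least 10 counts at both sites in wild-type total, 225 in nuclear, 298 in polysomal and 401 in Bmal1-/- RNA. Leaving out the high-Xist libraries and the block of number and time point were added after seeing the data.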

Other observations

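The size of the strand difference between nuclear and total RNA varied with the distance between opposite-strand ends. The median absolute log2 difference of balance was 0.93 in the 52 pairs tested at up to 100 bp, 0.73 in 119 pairs at over 100 to 250 bp and 0.88 in 142 pairs at over 250 to 500 bp, and 1.19 in 1045 pairs at over 5000 to 10000 bp. In Bmal1-/- against wild-type total RNA the same medians lay between 0.24 and 0.30 in all 7 distance bins, and in polysomal RNA between 0.85 and 1.11. Pairs share sites and loci, so these are descriptions without a test.

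A further pair with a called genotype difference in its balance rhythm contains a gene of the cleavage machinery. Cpsf1, the large subunit of the cleavage and polyadenylation specificity factor, ends 300 bp from Adck5 on the other strand, and the Adck5/Cpsf1 balance had a fitted peak-to-trough ratio of 2.72 in wild-type total RNA (limma, adjusted p = 0.00827; difference from Bmal1-/- RNA, adjusted p = 0.0116). The Adck5 site had a ratio of 1.94 (edgeR, adjusted p = 0.0187) and the Cpsf1 site 1.20 (adjusted p = 0.729). Taken singly, neither site was called different in rhythm between the genotypes (edgeR, adjusted p = 0.174 and 0.601). Against another Cpsf1 end, 372 bp away, the genotype difference in balance rhythm was not called (limma, adjusted p = 0.268). At Riox2/Crybg3, with sites crossed by 254 bp, the balance had a ratio of 4.48 (limma, adjusted p = 0.000554) and Crybg3 one of 3.04. The genotype difference had an adjusted p of 0.00202. With other Riox2 ends and the same Crybg3 site it had 0.0584, 0.0639 and 0.0836. Mean CPM in wild-type total RNA was 2.65 at the Riox2 end named first and 2.18 at Crybg3. Both pairs were picked after their values were seen.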
